A study of Rattus norvegicus with 4 samples.

Results

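The growth factor, TGF-beta and Wnt genes described here are 97 of the 18957 genes or gene-like entries listed in rat hindlimb footpad skin. They were chosen by symbol alone: the Wnt ligands with their frizzled receptors and secreted antagonists, the TGF-beta, BMP, activin and Smad genes, and the EGF, FGF, IGF, PDGF, VEGF and CCN families. By role they comprised 36 ligands, 22 receptors, 20 binding proteins or secreted antagonists, 6 Smad signal transducers and 13 genes that carry a family name but act otherwise. The skin came from Sprague Dawley rats, an outbred stock, on collection days 0, 3, 6 and 9 of a radiation dermatitis model, with 1 library for each day. The footpads were to receive 4 doses of 10 Gy, on days 1, 2, 4 and 5, from a 9 MeV electron beam at 500 cGy/min. By that schedule the day 0 skin was unirradiated, the day 3 skin had received the doses of days 1 and 2, and the day 6 and day 9 skin had received all 4. The labels are not uniform: the day 0 sample is described elsewhere as taken on day 1, and the later samples are each described with a different irradiation day. Days in the sample titles were used. The labels give no sex, age, number of animals or pooling.

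These families carry much of the talk between the epidermis and the dermis. Ligands such as the Wnts, TGF-betas and EGF family members are secreted or shed, act over short distances and are held back or released by binding proteins in the matrix. In skin, TGF-beta acting through receptor kinases and Smads is known for restraining keratinocyte division and for stimulating fibroblasts to make collagen. EGF receptor ligands are known for driving keratinocyte migration and division in wounds, VEGF for vessel growth, and Wnt signals for hair follicle and epidermal renewal.

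Transcripts were counted through 21-base tags that begin at a CATG site, and counts are not scaled by length. Each copy is 1 sequenced tag, and whether each came from a separate transcript is not known from these counts. The 4 libraries held 1952921 to 1982608 gene counts, and the members made up 0.536, 0.829, 0.678 and 0.716% of them on days 0, 3, 6 and 9. These shares depend strongly on 1 gene, Igfbp7, which alone had 3463, 7798, 6492 and 7535 counts. They do not describe the members as a group. Of the 97 members, 72 were listed in all 4 libraries, 29 stayed under 10 counts in every library, 30 reached 10 to 49 counts and 38 reached at least 50. With 1 library for each day, the spread between animals is unknown and no test could be made. Every ratio compares 2 libraries, and every 95% interval, an exact Clopper-Pearson interval given in parentheses, covers counting error only. Ratios were taken between counts scaled for library size, and a member was said to pass when its ratio was 2-fold or more, its larger count was 50 or more, and 1 lay outside the interval. A count of 0 or a missing row does not show that a transcript was absent, since only tags assigned to genes and seen at least 2 times were counted.

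The day 6 library stood apart from the others before any member was considered. All 9 listed skeletal muscle markers, among them the myosin gene Myl1, were at 0 on day 6, and their summed counts were 4557, 9554, 0 and 8381 on days 0, 3, 6 and 9. The 6 listed sweat gland and simple epithelium markers summed to 497, 861, 121 and 541 counts. The 11 fibroblast and dermal matrix markers, which include the member Pdgfra, summed to 23441, 106878, 79295 and 72858 counts, and were lowest on day 0. Basal keratinocyte markers, Krt14 among them, summed to 2536, 2511, 3069 and 2553 counts over 5 genes. Suprabasal and cornified markers summed to 40685, 32478, 56502 and 41909 counts over 7 genes, endothelial markers to 421, 502, 711 and 412 over 8, and macrophage markers to 873, 2077, 1470 and 1378 over 10. Adipocyte markers summed to 386, 1487, 527 and 943 counts over 7 genes, mast cell markers to 234, 606, 307 and 367 over 4, and nerve markers to 906, 1461, 1115 and 947 over 7. Red blood cell markers, over 2 genes, summed to 35, 1529, 104 and 595 counts. In such whole-tissue libraries, fewer cells of a type and less RNA per cell cannot be told apart.

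**Figure D1:**
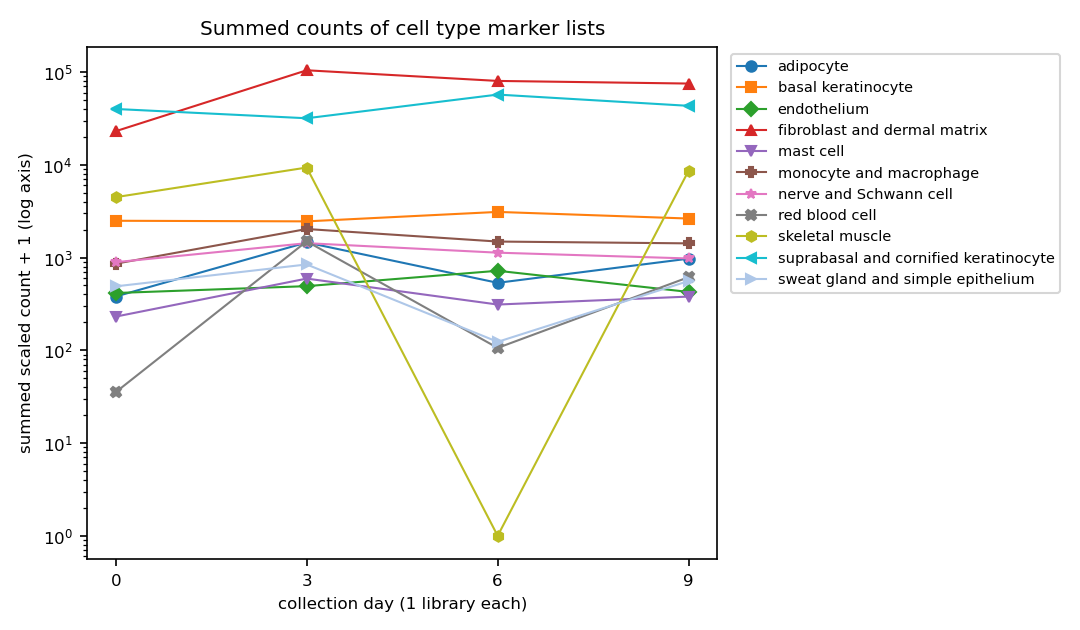
Summed scaled counts plus 1 (log axis) of 11 marker lists against collection day, with 1 library and hence 1 point for each day and no error bar. The muscle line drops to 0 counts on day 6, and the fibroblast line is lowest on day 0.

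Some members with wide differences, among them Areg and Ereg below the count floor, were counted through the tags below. Each begins with the CATG site, in capitals, and is read 5′ to 3′ toward the 3′ end of the transcript. They are the most copied tags of the procollagen protease Bmp1, the vessel growth factor Vegfa, the ligand Wnt4, the receptor Fgfr2, the binding proteins Igfbp4 and Fgfbp1, and the EGF receptor ligands Areg and Ereg.
Bmp1: CATGctttctgggtacccctc
Vegfa: CATGgaggcagagaaaagaga
Wnt4: CATGcgcagcggcgtgctagg
Fgfr2: CATGtgacaggagtgcagact
Igfbp4: CATGaagtaagtcaccaggat
Fgfbp1: CATGcaaggaattgttggctg
Areg: CATGccatagcctagctgatg
Ereg: CATGtgttaggtcaataacta
The Bmp1 tag had 24, 106, 81 and 114 copies on days 0, 3, 6 and 9, and the Vegfa tag had 43, 19, 5 and 27. None of the 312 tags of the members stood under a second gene. Among the 22 members that passed in any comparison, the leading tag held 54.4% to 100% of the gene's counts, with a median of 91.5%, and in 20 of them it lay at the CATG site nearest the 3′ end.

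Measured against day 0, more members passed as higher than as lower on each later day. On day 3, 8 members were higher and 1 was lower among the 34 with enough counts, or 26.5%. Of all genes with enough counts 16.4% passed, 8.54% as higher and 7.88% as lower. On day 6, 6 were higher and 4 lower among 35, or 28.6%, beside 20.6% of all genes, 7.48% higher and 13.1% lower. On day 9, 8 were higher and 4 lower among 35, or 34.3%, beside 21.1% of all genes, 10.7% higher and 10.4% lower. Over the 63 members that averaged 10 counts or more, the median log2 ratio was 0.12 on day 3, 0.16 on day 6 and -0.06 on day 9, beside -0.01, 0.03 and 0.00 over the 9876 genes with that mean. The members as a whole thus sat near the middle of all genes, and the differences lay in particular members. These comparisons share the day 0 library, so a low or high day 0 count enters all 3 of them. Counted over all 5 comparisons, which include the steps from day 3 to day 6 and from day 6 to day 9, 22 of the 38 members with at least 50 counts passed in 1 or more, or 57.9%, beside 38.5% of 5736 genes. Bmp1, Pdgfrl and Igfbp4 passed as higher on all 3 days and Wnt4 passed as lower on all 3.

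**Figure D2:**
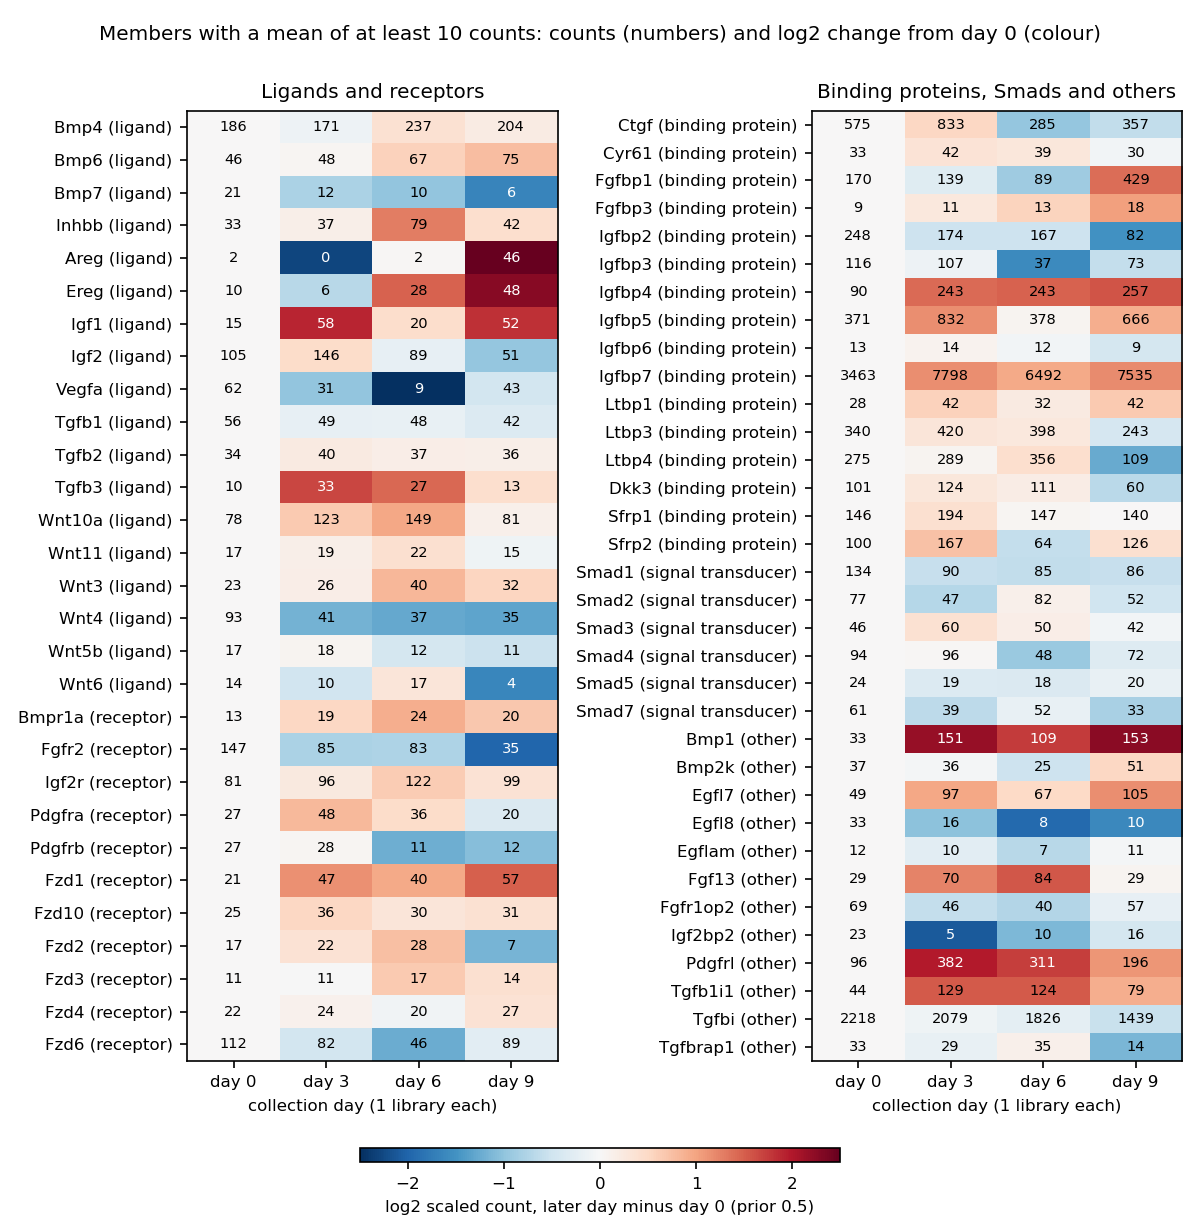
Counts (numbers) of the 63 members averaging 10 counts or more in the day 0, 3, 6 and 9 libraries, 1 library each, with ligands and receptors on the left and the other roles on the right. Colour gives the log2 scaled count minus that of day 0, with larger differences capped at the ends of the scale. Bmp1, Pdgfrl and Igfbp4 are red on days 3, 6 and 9, Wnt4 is blue on all 3 days, and Vegfa is darkest blue on day 6.

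**Figure D3:**
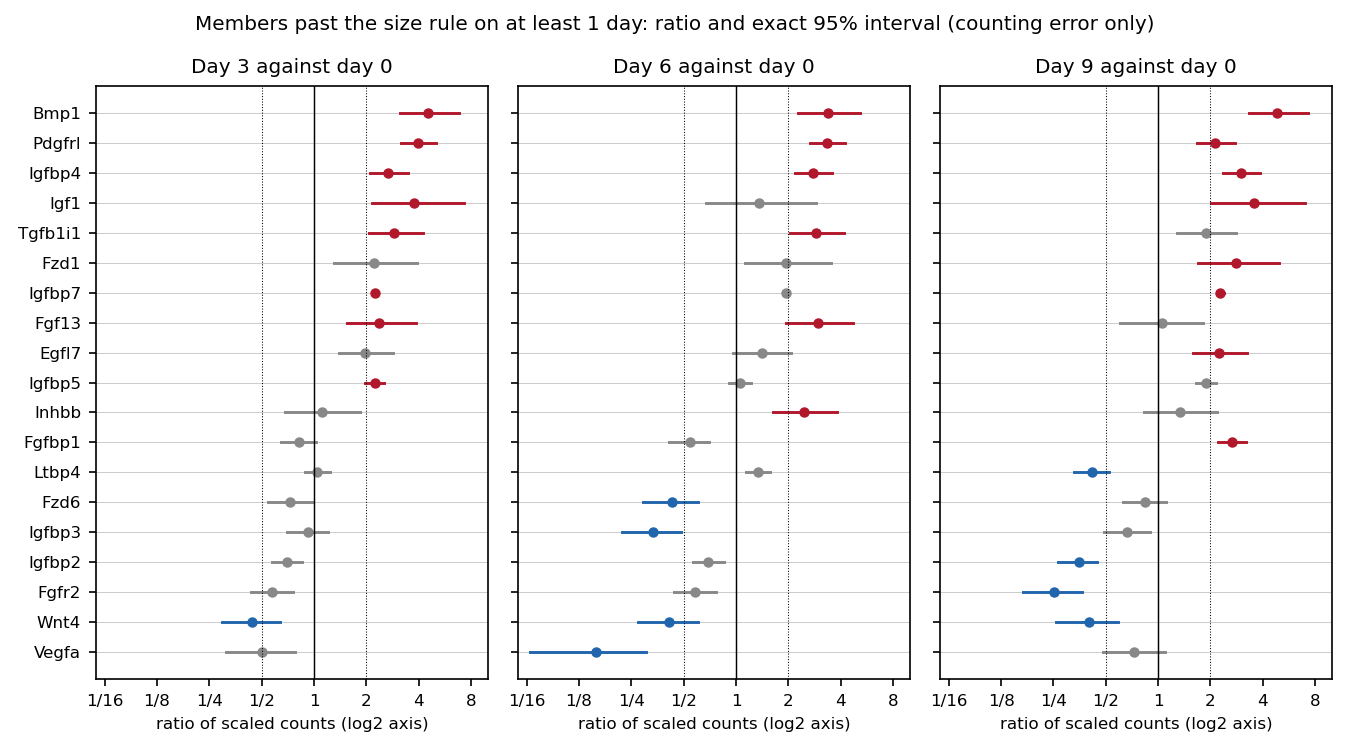
Ratio of scaled counts to day 0 (points, log2 axis) with exact 95% counting intervals (lines) for the 19 members that passed against day 0 on at least 1 day. Red points passed as higher, blue as lower and grey did not pass, and dotted lines mark 2-fold. Bmp1, Pdgfrl and Igfbp4 are red in all 3 panels and Wnt4 is blue in all 3.

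**Figure D4:**
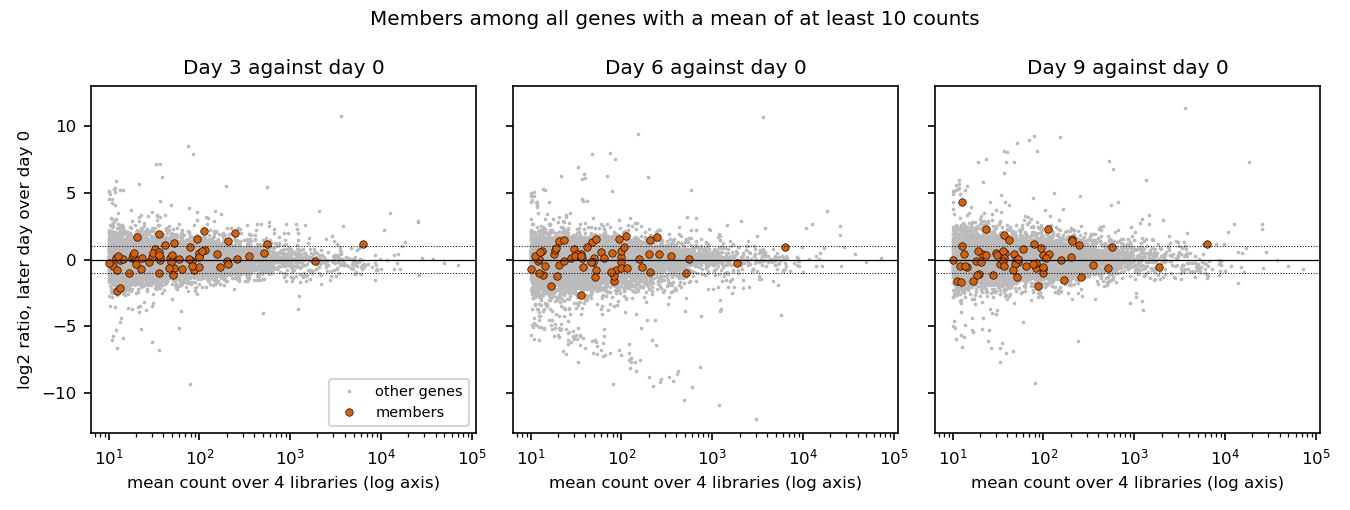
Log2 ratio to day 0 against the mean count over the 4 libraries (log axis) for the 63 members (orange) and all other genes with a mean of at least 10 counts (grey). Dotted lines mark 2-fold. The members lie on both sides of 0 on each day, and their medians are 0.12, 0.16 and -0.06.

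Of the 36 ligands, 9 reached 50 counts. Vegfa, Igf1, Wnt4 and Inhbb, 4 of these or 44.4%, passed in at least 1 comparison, beside 38.5% of all genes with enough counts. Vegfa, which stimulates endothelial cells to form and open vessels, had 62, 31, 9 and 43 counts on days 0, 3, 6 and 9. It was highest on day 0 and lowest on day 6. The ratio of day 6 to day 0 was 6.39-fold (3.31 to 15.3) lower, the ratio of day 3 was 1.99-fold (1.29 to 3.20) lower and just missed the 2-fold line, and that of day 9 was 1.37-fold (0.916 to 2.08) lower. The 2 tags of Vegfa with at least 10 copies on average had 43, 19, 5 and 27 copies and 14, 12, 4 and 16 copies, and each was lowest on day 6. The related ligand Vegfc, a growth factor of lymphatic vessels, had 4 to 6 counts in each library, too few to compare. The muscle marker sum, at 0, and the sweat gland sum, at 121, were also lowest on day 6. From day 0 to day 3, while Vegfa fell, these sums rose, from 4557 to 9554 and from 497 to 861. Their part in the Vegfa values was not tested. Without day 6, Vegfa did not pass against day 0.

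Igf1, the insulin-like growth factor that stimulates growth and survival of many cell types, had 15, 58, 20 and 52 counts. Days 3 and 9 were high, and days 0 and 6 were low. Igf1 was 3.75-fold (2.15 to 7.31) higher on day 3 and 3.56-fold (2.02 to 6.96) higher on day 9 than on day 0, and day 6 differed by 1.36-fold (0.668 to 2.88). Between later days it was 2.76-fold (1.66 to 4.92) lower on day 6 than on day 3 and 2.61-fold (1.56 to 4.69) higher on day 9 than on day 6. Its sister ligand Igf2, an imprinted gene active in fetal growth, had 105, 146, 89 and 51 counts and did not pass. Igf2 was 1.95-fold (1.39 to 2.80) lower on day 9 than on day 0. The day 3 and day 9 libraries also had the higher muscle, adipocyte and red blood cell marker sums, and their part in the Igf1 values was not tested.

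Wnt4, a ligand made in epidermis and known for its role in kidney and gonad development, had 93, 41, 37 and 35 counts, all in 1 tag. The 3 later days lay close together and below day 0. It was 2.27-fold (1.56 to 3.38) lower on day 3, 2.42-fold (1.65 to 3.68) lower on day 6 and 2.51-fold (1.70 to 3.85) lower on day 9. The 5 basal keratinocyte markers went different ways beside it: Col17a1 had 788, 423, 467 and 387 counts, Krt14 295, 144, 319 and 353, and Itgb4 838, 1133, 1611 and 1187. Their part in the Wnt4 values was not tested. Wnt10a, a ligand of skin appendages and teeth, had 78, 123, 149 and 81 counts, highest on day 6 and nearly equal on days 0 and 9. Its largest ratio, day 6 to day 0, was 1.96-fold (1.49 to 2.62) higher and did not pass. Wnt6 lies next to Wnt10a on rat chromosome 9 with no protein-coding gene between them, and it had 14, 10, 17 and 4 counts, too few for the rule. Wnt3, Wnt11 and Wnt5b had 23 to 40, 15 to 22 and 11 to 18 counts, and the other 5 of the 11 Wnt ligands, Wnt5a among them, stayed under 10 counts in every library.

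Inhbb encodes the beta B subunit of activin and inhibin, ligands of the TGF-beta superfamily. It had 33, 37, 79 and 42 counts, and day 6 alone was high. It was 2.44-fold (1.62 to 3.82) higher on day 6 than on day 0 and 2.19-fold (1.48 to 3.36) higher than on day 3. The 3 TGF-beta ligands did not pass, and only 1 of them reached 50 counts. Tgfb1 had 56, 49, 48 and 42 counts, and its ratios to day 0 were 1.15-fold (0.769 to 1.72), 1.13-fold (0.757 to 1.70) and 1.27-fold (0.836 to 1.94) lower, intervals that leave differences of up to 1.94-fold lower possible. Tgfb2 had 34, 40, 37 and 36 counts. Tgfb3, the isoform best known from palate closure, had 10, 33, 27 and 13 counts, below the 50-count floor, and was 3.17-fold (1.58 to 7.47) higher on day 3 and 2.70-fold (1.30 to 6.44) higher on day 6 than on day 0. Bmp4, a bone morphogenetic protein of dermal cells, had 186, 171, 237 and 204 counts, and Bmp6 had 46, 48, 67 and 75. Neither passed on any day. Bmp7 had 21, 12, 10 and 6 counts, highest on day 0, and Bmp2 had at most 8 counts.

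Among the EGF receptor ligands, Areg and Ereg had wide ratios of day 9 to day 0, though none reached 50 counts. Areg, amphiregulin, a keratinocyte growth factor shed from the cell surface, had 2, 0, 2 and 46 counts, so nearly all its copies came from day 9. Its ratio of day 9 to day 0 was 19.5-fold (6.31 to 205) higher. Ereg, epiregulin, another ligand of that receptor, had 10, 6, 28 and 48 counts, and days 6 and 9 were above days 0 and 3. It was 4.85-fold (2.52 to 11.2) higher on day 9 than on day 0. Btc, betacellulin, had at most 5 counts and Hbegf, a heparin-binding ligand that helps keratinocytes to migrate, had 3, 3, 4 and 7. In the RefSeq table of assembly GRCr8, Btc, Areg and Ereg follow each other on rat chromosome 14, with no protein-coding gene between neighbours. The related ligand Tgfa, from the pathway list, had 61, 45, 70 and 105 counts and was 1.80-fold (1.31 to 2.52) higher on day 9, short of the rule. The 250 bases before the start of Areg are shown because nearly all Areg counts came from day 9 and because its promoter is known for a cAMP response element. They are from RefSeq, GRCr8, chr14:17265642-17265891, minus strand, 5′ to 3′, and the capitals mark the motif TGACGTCA, searched on both strands.
Areg promoter: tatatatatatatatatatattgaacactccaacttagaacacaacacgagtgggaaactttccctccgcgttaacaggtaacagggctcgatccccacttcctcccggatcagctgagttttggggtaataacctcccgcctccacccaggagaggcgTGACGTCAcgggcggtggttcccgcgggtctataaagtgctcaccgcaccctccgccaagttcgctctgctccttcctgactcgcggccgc
The motif was found 1 time, starting 91 bases before the annotated start, and 1.59% of the 33469 promoter windows of the same length hold it. A match of letters is a description and does not show binding.

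Of the 22 receptors, 4 reached 50 counts and 3 of these passed in at least 1 comparison, beside 38.5% of genes with enough counts. Fgfr2, the receptor of keratinocyte growth factor on epidermal cells, had 147, 85, 83 and 35 counts on days 0, 3, 6 and 9. Day 0 was highest, days 3 and 6 were alike, and day 9 was lowest. It was 3.96-fold (2.75 to 5.96) lower on day 9 than on day 0 and 2.31-fold (1.55 to 3.56) lower than on day 6. The ratios of days 3 and 6 to day 0, 1.73-fold (1.32 to 2.30) and 1.72-fold (1.31 to 2.28) lower, did not pass. Of the basal keratinocyte markers, Col17a1 was also lower on day 9, with 788 counts on day 0 and 387 on day 9, while Itga6 had 162 and 248 and Itgb4 838 and 1187. Their part in the Fgfr2 values was not tested. The other FGF receptors, Fgfr1, Fgfr3 and Fgfr4, stayed under 10 counts, and the decoy receptor Fgfrl1 had 5 to 11.

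The frizzled receptors, which bind Wnt ligands at the cell surface, gave 1 higher and 1 lower member. Only 2 of the 9 reached 50 counts, so the rule could not judge the others. Of all genes with enough counts, 38.5% passed in at least 1 comparison, and 2 receptors are too few to set against that share. Fzd1 had 21, 47, 40 and 57 counts, lowest on day 0, and was 2.81-fold (1.70 to 4.95) higher on day 9. On days 3 and 6 it was 2.20-fold (1.31 to 3.92) and 1.94-fold (1.13 to 3.50) higher, under the count floor. Fzd6, a frizzled of the planar polarity of hair, had 112, 82, 46 and 89 counts, lowest on day 6, and was 2.35-fold (1.66 to 3.41) lower on day 6 than on day 0. Fzd10 and Fzd4 ranged from 25 to 36 and from 20 to 27 counts. Among the other receptors, Igf2r, which clears IGF2 and carries lysosomal enzymes, had 81, 96, 122 and 99 counts. The platelet-derived growth factor receptors Pdgfra and Pdgfrb, of fibroblasts and of pericytes, had 27, 48, 36 and 20 counts and 27, 28, 11 and 12 counts. Tgfbr1 had 5 to 8 counts, Tgfbr3 3 to 11, Bmpr1a 13 to 24, Bmpr2 2 to 6 and Igf1r 2 to 7, so none of these could be judged by the rule.

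Of the 20 binding proteins, 12 reached 50 counts. In at least 1 comparison 9 of these passed, or 75.0%, beside 38.5% of all genes with enough counts. The CCN members Ctgf and Cyr61, described below, are classed among the 20, and Ctgf is 1 of the 9. The IGF-binding proteins, which carry IGF and limit or prolong its action, accounted for 5 of the 9. These were the 5 of the 6 listed that reached 50 counts. Igfbp4, which mostly holds IGF back from its receptor, had 90, 243, 243 and 257 counts. The 3 later days were nearly equal and all above day 0, at 2.68-fold (2.10 to 3.46), 2.77-fold (2.17 to 3.58) and 2.99-fold (2.35 to 3.85) higher. Igfbp7, a secreted low-affinity relative found around vessels, was the most counted member, with 3463, 7798, 6492 and 7535 counts. It was 2.24-fold (2.15 to 2.33) higher on day 3 and 2.28-fold (2.19 to 2.38) higher on day 9, and at 1.93-fold (1.85 to 2.01) it did not pass on day 6. Igfbp5, a matrix-bound binding protein, had 371, 832, 378 and 666 counts, and like Igf1 it was high on days 3 and 9 and low on days 0 and 6. It was 2.23-fold (1.97 to 2.53) higher on day 3 than on day 0, 2.13-fold (1.88 to 2.41) lower on day 6 than on day 3, and at 1.88-fold (1.66 to 2.14) did not pass on day 9.

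Other IGF-binding proteins were lower. Igfbp3, the main IGF carrier of blood and also made in epidermis, had 116, 107, 37 and 73 counts, and day 6 stood below the other 3. It was 3.02-fold (2.09 to 4.54) lower on day 6 than on day 0 and 2.77-fold (1.91 to 4.18) lower than on day 3. Igfbp2, an IGF carrier abundant in fetal tissues, had 248, 174, 167 and 82 counts, highest on day 0 and lowest on day 9, where it was 2.87-fold (2.24 to 3.75) lower. Igfbp6, which prefers IGF2, had 9 to 14 counts in the 4 libraries. Fibroblast marker sums were lowest on day 0, as Igfbp4 and Igfbp7 were, and the muscle sum was 0 on day 6, when Igfbp5 and Igfbp3 were below day 3. The part of these sums in the values was not tested.

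Of the latent TGF-beta binding proteins, which tether inactive TGF-beta to the matrix, Ltbp4 passed and the others did not. Only 2 of the 4 reached 50 counts, too few to set against the 38.5% of all genes with enough counts that passed in at least 1 comparison. Ltbp4 had 275, 289, 356 and 109 counts, and day 9 alone was low, 2.40-fold (1.92 to 3.03) below day 0 and 3.19-fold (2.58 to 4.01) below day 6. Ltbp3 had 340, 420, 398 and 243 counts, lowest on day 9 as well, at 1.33-fold (1.13 to 1.58) below day 0. Ltbp1 had 28 to 42 counts and Ltbp2 at most 5. Fgfbp1, a secreted carrier that frees FGF from the matrix, had 170, 139, 89 and 429 counts. Its day 9 count was the highest of the 4, 2.64-fold (2.21 to 3.18) above day 0 and 4.89-fold (3.90 to 6.25) above day 6. The related Fgfbp3 had 9, 11, 13 and 18 counts.

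Ctgf, connective tissue growth factor, a matricellular CCN protein induced by TGF-beta and by mechanical strain, had 575, 833, 285 and 357 counts. Day 3 was highest and day 6 lowest. It passed between days 6 and 3, at 2.82-fold (2.47 to 3.24) lower on day 6, where 9.63% of all genes with enough counts passed and 6 of 32 members did. Against day 0 it was 1.44-fold (1.29 to 1.61) higher on day 3, 1.96-fold (1.70 to 2.27) lower on day 6 and 1.53-fold (1.34 to 1.76) lower on day 9, and passed on none of these days. Cyr61, the other CCN member, had 33, 42, 39 and 30 counts. The 250 bases before the start of Ctgf, listed as Ccn2 in RefSeq, are shown because the promoter is known for sites of the TEAD factors, the DNA-binding partners of YAP. They are from GRCr8, chr1:22624615-22624864, minus strand, with capitals marking GGAATG, searched on both strands.
Ctgf promoter: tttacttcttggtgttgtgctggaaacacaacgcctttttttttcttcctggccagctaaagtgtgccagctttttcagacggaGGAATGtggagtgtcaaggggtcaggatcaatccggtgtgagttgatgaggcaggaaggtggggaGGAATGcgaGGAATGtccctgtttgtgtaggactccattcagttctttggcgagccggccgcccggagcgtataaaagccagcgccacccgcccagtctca
The motif was found 3 times, starting 166, 101 and 92 bases before the annotated start, and 12.1% of the 33469 promoter windows hold it at least 1 time and 0.0777% at least 3 times. None of these values bears on whether a factor was bound.

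Secreted antagonists of Wnt gave 1 member past the rule. Only 3 of the 6 reached 50 counts, so the rule could not judge the others. The share of all genes with enough counts that passed in at least 1 comparison was 38.5%, so 1 of 3 does not set the antagonists apart. Sfrp2, a frizzled-related protein of dermal fibroblasts, had 100, 167, 64 and 126 counts, highest on day 3 and lowest on day 6, and was 2.51-fold (1.88 to 3.42) lower on day 6 than on day 3. Sfrp1 had 146, 194, 147 and 140 counts, and Dkk3, a dickkopf family member, had 101, 124, 111 and 60. Neither passed in any comparison. Sfrp4, Sfrp5 and Dkk2 had at most 10 counts.

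None of the 6 Smads, which carry the TGF-beta and BMP signal to the nucleus, passed in any comparison. Among them 5 reached 50 counts, and 38.5% of all genes with enough counts passed in at least 1 comparison. Smad1, a BMP transducer, had 134, 90, 85 and 86 counts, highest on day 0, and was 1.49-fold (1.14 to 1.98), 1.53-fold (1.16 to 2.03) and 1.48-fold (1.12 to 1.97) lower on days 3, 6 and 9. Smad2 and Smad3, which act for TGF-beta and activin, had 77, 47, 82 and 52 counts and 46, 60, 50 and 42 counts. Smad4, the common partner, had 94, 96, 48 and 72 counts and was 1.89-fold (1.33 to 2.75) lower on day 6 than on day 0. Smad7, which inhibits the receptors, had 61, 39, 52 and 33 counts, 1.75-fold (1.14 to 2.78) lower on day 9. Smad5, a BMP transducer, had 18 to 24 counts. On day 9 all 6 Smads had a ratio below 1, with a median log2 ratio of -0.40 beside 0.00 over all genes. The day 9 intervals of Smad2, Smad3, Smad4 and Smad5 included 1. On days 3 and 6, 4 of the 6 were below 1, and all these ratios share the day 0 library.

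Of the 13 members with a family name and another role, 8 reached 50 counts. In at least 1 comparison 6 of these passed, or 75.0%, beside 38.5% of all genes with enough counts. Bmp1 is not a BMP ligand but the protease that trims procollagens and releases matrix-bound growth factors. It had 33, 151, 109 and 153 counts, low on day 0 and high on the 3 later days, at 4.50-fold (3.11 to 6.85), 3.37-fold (2.29 to 5.18) and 4.81-fold (3.32 to 7.32) higher. Pdgfrl, a secreted protein that resembles the PDGF receptor, had 96, 382, 311 and 196 counts, highest on day 3 and lowest on day 0. It was 3.94-fold (3.16 to 5.00), 3.32-fold (2.65 to 4.24) and 2.14-fold (1.67 to 2.77) higher on days 3, 6 and 9. Tgfb1i1, the focal adhesion protein Hic-5, had 44, 129, 124 and 79 counts and was 2.90-fold (2.06 to 4.21) and 2.88-fold (2.04 to 4.19) higher on days 3 and 6. These 3 genes were lowest on day 0, as the fibroblast marker sum was, which was 23441 counts on day 0 and 72858 to 106878 later, and its part in their values was not tested.

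Fgf13 encodes a factor that stays inside the cell and binds sodium channels and microtubules. It had 29, 70, 84 and 29 counts, equal on days 0 and 9 and higher between, at 2.38-fold (1.54 to 3.84) on day 3 and 2.95-fold (1.93 to 4.72) on day 6. Nerve markers, with 906, 1461, 1115 and 947 counts, were also highest on days 3 and 6, and their part in the Fgf13 values was not tested. Egfl7, a protein secreted by endothelial cells, had 49, 97, 67 and 105 counts and was 2.24-fold (1.59 to 3.23) higher on day 9. By its leading and second tags day 9 was 2.78-fold (1.80 to 4.51) and 1.49-fold (0.83 to 2.76) higher than day 0. Endothelial markers summed to 421, 502, 711 and 412 counts, and their part in the Egfl7 values was not tested. Bmp2k, a kinase named for its induction by BMP2, had 37, 36, 25 and 51 counts and passed between days 9 and 6 alone, at 2.06-fold (1.27 to 3.50) higher on day 9. Its leading tag, with 30, 30, 19 and 32 copies, was short of 2-fold in that step. Tgfbi, a matrix protein induced by TGF-beta, was the second most counted member, with 2218, 2079, 1826 and 1439 counts. It was 1.47-fold (1.37 to 1.57) lower on day 9 than on day 0, a difference beyond counting error that is short of the rule.

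The steps between later days, which do not use the day 0 library, were also compared. From day 3 to day 6, 1 member was higher and 5 were lower among 32, or 18.8%, beside 9.63% of all genes, 2.88% higher and 6.74% lower. Inhbb was the higher one, and Igf1, Igfbp3, Igfbp5, Sfrp2 and Ctgf were lower. From day 6 to day 9, 3 were higher and 3 lower among 35, or 17.1%, beside 14.4% of all genes, 10.0% higher and 4.37% lower. The higher ones were Igf1, Bmp2k and Fgfbp1, and the lower ones were Fgfr2, Ltbp4 and Fgf13, at 2.81-fold (1.84 to 4.50). Median log2 ratios over the 63 members were -0.11 from day 3 to day 6 and -0.05 from day 6 to day 9, beside 0.02 and 0.00 over all genes. Vegfa did not reach 50 counts on days 3, 6 or 9, and its counts of 31, 9 and 43 gave a ratio 4.67-fold (2.34 to 11.4) higher on day 9 than on day 6. The muscle markers, at 0 counts on day 6 and 8381 on day 9, moved the same way as Igf1 and Vegfa in these steps. From day 3 to day 6, when Igf1, Igfbp3, Igfbp5, Sfrp2 and Ctgf were lower, the muscle sum went from 9554 to 0, the adipocyte sum from 1487 to 527 and the red blood cell sum from 1529 to 104. The part of these sums in the values was not tested.

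Some members were counted through 2 or more tags, which gives a second reading of the gene within the same libraries. In 17 members at least 2 tags had a mean of 10 copies, and 9 of these members passed in a comparison. All 19 readings of a further tag lay on the same side of 1 as the gene's own ratio in the comparisons that passed. The tags share libraries and are not replicates. Each further tag also counts toward the gene's ratio, so part of this agreement is built in. The readings include the second Igfbp7 tag, which lies at the same CATG site as the leading tag and differs from it at 1 base. For Bmp1 the tag at the 3′-most site had 24, 106, 81 and 114 copies and the tag at the seventh site had 9, 45, 25 and 37. For Igfbp3 the 2 tags had 62, 56, 21 and 42 copies and 54, 49, 16 and 31 copies. In other members the tags diverged. The leading Ctgf tag had 523, 808, 262 and 327 copies, while the tag at the next site had 38, 19, 16 and 22, so it was 1.98-fold (1.13 to 3.69) lower on day 3 where the leading tag was 1.54-fold (1.38 to 1.72) higher. Egfl7 had 28, 70, 57 and 75 copies of its leading tag and 21, 25, 10 and 30 of the second. Sfrp2 had 80, 105, 36 and 93 copies of its leading tag and 18, 58, 26 and 33 of its second, and on day 6 the leading tag was 2.14-fold (1.44 to 3.29) lower than on day 0 while the second was 1.47-fold (0.785 to 2.88) higher.

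The 2 most copied tags of Igfbp7 are shown because they differ at 1 base, C17T, counted from 1 at the first base of the CATG site.
Igfbp7 leading tag: CATGcagagctttaaacaaaa
Igfbp7 second tag: CATGcagagctttaaataaaa
The leading tag had 3418, 7627, 6408 and 7402 copies on days 0, 3, 6 and 9, and the second had 2, 64, 11 and 56. The second tag was thus seen mainly on days 3 and 9, and it was too rare to move the ratios of the gene, which were 2.22-fold (2.13 to 2.31) and 2.27-fold (2.18 to 2.37) higher on days 3 and 9 by the leading tag alone.

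**Figure D5:**
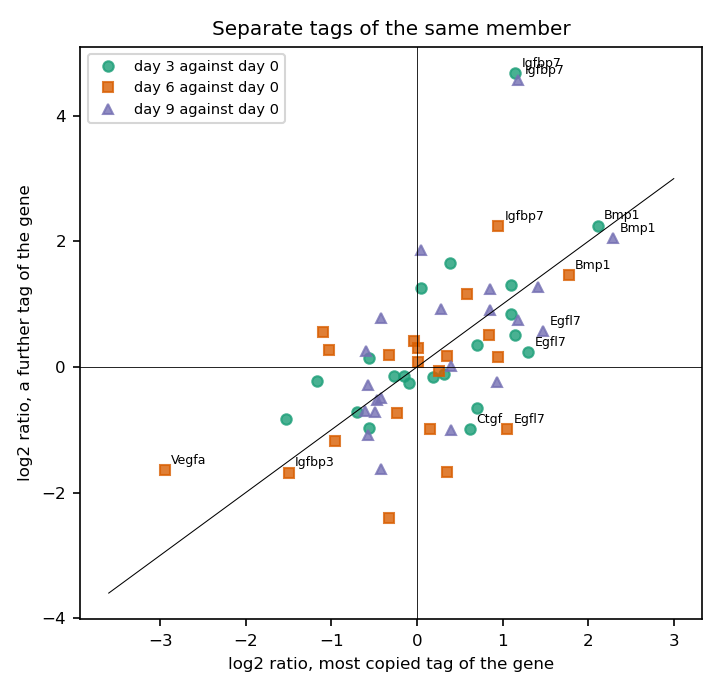
Log2 ratio to day 0 of a further tag (vertical axis) against that of the most copied tag (horizontal axis) of the same member, for the 17 members with at least 2 tags of 10 mean copies. Symbols mark the day and the line marks equal ratios. The Bmp1 and Igfbp3 points lie near the line, and the Ctgf point of day 3, the Egfl7 point of day 6 and the Igfbp7 points of days 3 and 9 lie away from it.

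Further genes of the same pathways were read from 5 lists. Of 32 listed TGF-beta and BMP pathway genes, 15, 14 and 15 had enough counts on days 3, 6 and 9. On day 3, 3 were higher and 1 lower, on day 6, 2 were higher and 1 lower, and on day 9 none passed. Fbn1, the fibrillin to which latent TGF-beta complexes bind, had 30, 63, 157 and 52 counts, 5.32-fold (3.63 to 8.25) higher on day 6, and Fstl1, a secreted follistatin relative, had 94, 339, 420 and 160 counts, 4.58-fold (3.67 to 5.82) higher on day 6. Of 32 listed Wnt pathway genes, none of the 15, 14 and 14 with enough counts passed against day 0. The furthest apart were Wif1, a secreted Wnt inhibitor with 201, 283, 383 and 303 counts, and Csnk1a1, a kinase of the beta-catenin destruction complex with 397, 543, 513 and 668 counts.

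Of 17 listed EGF receptor pathway genes, none of 9 passed on days 3 and 6, and 1 was higher and 1 lower on day 9. Dusp6, a phosphatase induced by ERK signalling, had 88, 87, 94 and 213 counts and was 2.53-fold (1.97 to 3.30) higher on day 9. Erbb2, a partner receptor, had 52, 54, 49 and 18 counts and was 2.70-fold (1.58 to 5.00) lower on day 9. Of 23 listed IGF, PDGF, VEGF and FGF pathway genes, 10, 10 and 7 had enough counts. On day 3, 2 were higher and 1 lower, on day 6, 3 were higher and 2 lower, and on day 9, 1 was higher. Angpt2, an antagonist of the vessel-stabilising TIE2 receptor, had 21, 71, 64 and 58 counts, 3.31-fold (2.04 to 5.76) higher on day 3. Gpc1, a heparan sulfate proteoglycan that binds FGF and VEGF, had 175, 150, 53 and 96 counts, 3.19-fold (2.35 to 4.45) lower on day 6, and Sdc1, the syndecan of keratinocytes, had 1810, 694, 783 and 1060 counts, 2.62-fold (2.40 to 2.87) lower on day 3. Of 8 listed CCN and YAP pathway genes, 2 of 5 were higher and 1 lower on each later day. Wisp2, a CCN protein of fibroblasts, had 61, 317, 287 and 143 counts, 5.14-fold (3.92 to 6.92) higher on day 3, and Tead3, a partner of YAP, had 53, 18, 15 and 22 counts, 3.35-fold (1.91 to 6.56) lower on day 6. The same shares of all genes, 16.4%, 20.6% and 21.1%, are the background of these counts.

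The remaining members add low counts. Of the 29 that stayed under 10 counts in every library, 17 were ligands and 8 were receptors, among them Pdgfa, Pdgfb, Inhba, Fgf1, Fgf9 and Fgf10. Fgf16 was listed at 0 on days 0 and 9 and had 10 and 18 counts on days 3 and 6, which is at least 6.18-fold higher on day 6 than the 3 counts that a library at 0 allows. Egfl8, an endothelial EGF-like protein, had 33, 16, 8 and 10 counts, and Igf2bp2, an RNA-binding protein, had 23, 5, 10 and 16, each highest on day 0 and under the count floor. The 7 genes Tgfbr2, Dkk1, Egfr, Fgf2, Fgf7, Fgf22 and Vegfb had no row under those symbols in the tables used and are not analysed here.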

How the data were processed

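Footpad skin of 4 collection days was measured, with 1 library for each day. As the deposited tables show, the authors assigned 21-base tags to genes and deposited whole-number counts of tag copies, for each tag and summed for each gene, leaving out tags seen fewer than 2 times. The column the authors headed TPM held CPM values, scaled to all tags seen at least 2 times and not by length, and it was used in 1 alternative. Recomputed gene sums, tag copies and scaled values departed from the deposited ones 0 times. The assembly was Rnor_6.0, per the submitters' processing notes, while the aligner is not given in the sources used here.

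Libraries held 3360368 to 3592019 sequenced tags. Counts were joined by gene ID and scaled by gene totals and TMM factors (edgeR 4.0.16) of 1.01, 1.02, 0.989 and 0.978. Ratios used a prior count of 0.5. With 1 library for each day neither edgeR nor DESeq2 can estimate a spread, so no test was made. All 97 members matched the RefSeq table (GRCr8) by gene ID, 2 under another symbol, and no coordinates were used beyond those of the promoters printed. Alternatives covered scaling (gene totals, gene totals less the 20 top genes, size factors of DESeq2 1.42.0), count floor, fold, interval, prior count, the most abundant tag alone and the authors' value plus 1.

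The members and lists were chosen with earlier results of these data known. Named were the members past the rule in any of the 5 comparisons, a set of 52 genes (45 with a row), and of each pathway list the 2 to 4 genes furthest from day 0. Members named beyond these at low counts, such as Bmp7, Wnt6, Igf2bp2, Egfl8 and Fgf16, were chosen after their values were seen. Of the marker lists, Pdgfra is a member. For 1 gene of the TGF-beta and BMP pathway list the values are not reported here.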

Additional observations from a re-analysis of the deposited data

How the results depend on the processing

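The counts of members past the rule moved by over 1.5 times with the count floor and the fold, and by less than that under the other alternatives. Of the 43 passes over the 5 comparisons, all 43 held under each of the 3 other scalings, which added 3 passes with totals alone, 2 with DESeq2 size factors and 3 with totals less the 20 top genes. With the most abundant tag alone 36 held and 9 were added, with a floor of 100 counts 27, with the authors' value plus 1 41, with an interval bound of at least 1.5 41 and with a prior count of 5 42. The passes lost with the leading tag alone were those of Igf1 in 4 comparisons, Vegfa on day 6, Fzd1 on day 9 and Bmp2k. In each of these fewer counts remained. The leading Bmp2k tag, with 19 copies on day 6 and 32 on day 9, was also short of 2-fold. No pass changed direction. For day 3 against day 0, 9 members passed, and 14 did with a floor of 10 counts, 15 with no floor and 17 at 1.5-fold. For day 6 against day 0 the 10 became 17, 18 and 20, and 6 with a floor of 100. For day 9 against day 0 the 12 became 19, 22 and 20. For day 6 against day 3 the 6 became 11 at 1.5-fold. For day 9 against day 6 the 6 became 12, 13 and 21, and 2 with a floor of 100. By construction a lower floor or fold admits more members. The median log2 ratios of the members stayed within the members' median counting intervals under every alternative run. That band is as wide as a typical interval of a single member, so small shifts of the median could hardly leave it. With the authors' value plus 1, the share of higher genes among all calls was 63.2% on day 3 against day 0 in place of 52% and 16.8% on day 6 against day 3 in place of 29.9%, and the median of all genes in the latter moved from 0.02 to -0.11 on the log2 scale. No paired analysis was possible because each day has 1 library.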
